A study of Mus musculus with 2 samples.

Results

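The 8 complement genes followed across the cells of J558 tumours were C1qa, C1qb, C1qc, C3, Cfb, Serping1, C3ar1 and C5ar1. They were taken by gene symbol, and all 8 were found once each among the 32285 features of the count tables. The genes were chosen by name with earlier results of these data known, and the cell classes below were set from other genes. All were a larger part of the transcripts in the TAK-931 tumour than in the vehicle tumour, and most of that difference lay in which cells were present. Within cells of a class, C1q was slightly lower in macrophages under TAK-931, and higher in monocytes, there from few vehicle UMIs. C3 and Cfb were higher in macrophages and far higher in fibroblasts, and Serping1 was higher in fibroblasts and endothelial cells.

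Complement is a cascade of proteases that tags cells and debris for uptake and calls in myeloid cells. C1q, assembled from A, B and C chains, recognises targets in the classical pathway and is made mainly by macrophages, whereas most other circulating components come from the liver. C3 is the component on which all pathways meet, factor B (Cfb) forms the C3-cleaving enzyme of the alternative pathway, and C1 inhibitor (Serping1) blocks the proteases C1r and C1s. The fragments C3a and C5a act on the receptors C3ar1 and C5ar1, which are found on myeloid cells.

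J558 is a mouse plasmacytoma line of BALB/c origin, and the tumours grew under the skin of immune-competent female BALB/c mice. The control group received the vehicle, 0.5% methylcellulose, and the other the CDC7 inhibitor TAK-931 at 60 mg/kg, both by mouth daily for 6 days. CDC7 is a kinase that starts DNA replication. Whole tumours were dissociated, red cells were lysed, and 1 droplet-based 3′ library was made per group. By the study's text each library came from the tumour of 1 mouse. With 1 library per group no test between treatments was possible, and every interval given is a 95% interval that covers counting error only.

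By gene identifier, all 8 genes lie on the reverse strand of GRCm38 in the GENCODE vM21 annotation and are protein-coding. C1qa (chr4:136895917-136898803), C1qc (chr4:136889804-136893065) and C1qb (chr4:136880129-136886187) are neighbours within 18.7 kb of chromosome 4. C3 (chr17:57203970-57228136) and Cfb (chr17:34856374-34862518) are 22.3 Mb apart on chromosome 17. Serping1 is at chr2:84765387-84775444, C3ar1 at chr6:122847138-122856161 and C5ar1 at chr7:16246743-16259540. The RefSeq promoter table (GRCm38.p6, 250 bases before to 50 after each start) held 5 of the 8 genes. Of these, C1qb (chr4:136886151-136886450) and C1qc (chr4:136892865-136893164) are shown as neighbouring genes whose counts each varied with those of C1qa between cells. C3 (chr17:57228087-57228386) is shown as the gene with a large difference in fibroblasts. Each is printed 5′ to 3′ on the gene's own strand, with capitals marking the motif found.
C1qb: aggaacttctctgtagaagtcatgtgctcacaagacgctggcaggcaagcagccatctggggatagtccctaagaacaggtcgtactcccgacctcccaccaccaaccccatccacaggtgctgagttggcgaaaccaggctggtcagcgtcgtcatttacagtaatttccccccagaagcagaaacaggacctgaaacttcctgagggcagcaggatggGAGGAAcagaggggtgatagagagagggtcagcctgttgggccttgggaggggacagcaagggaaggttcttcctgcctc
C1qc: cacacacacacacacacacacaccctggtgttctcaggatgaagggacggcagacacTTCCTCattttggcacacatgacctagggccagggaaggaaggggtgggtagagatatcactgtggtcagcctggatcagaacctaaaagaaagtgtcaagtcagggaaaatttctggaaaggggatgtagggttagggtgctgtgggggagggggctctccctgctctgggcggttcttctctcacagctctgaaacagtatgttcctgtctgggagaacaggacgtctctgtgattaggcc
C3: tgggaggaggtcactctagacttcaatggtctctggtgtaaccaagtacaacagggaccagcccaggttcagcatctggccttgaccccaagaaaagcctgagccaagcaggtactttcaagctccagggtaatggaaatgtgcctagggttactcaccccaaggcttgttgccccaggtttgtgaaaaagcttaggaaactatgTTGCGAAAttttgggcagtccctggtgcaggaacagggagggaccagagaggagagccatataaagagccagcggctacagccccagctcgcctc
The motifs searched on both strands were the PU box GAGGAA (binding core of the myeloid factor PU.1), the C/EBP motif TTGCNNAA, the gamma-activated sequence TTCNNNGAA, the interferon-stimulated core TTCNNTTTC and the NF-kB motif GGGANTTTC. No printed match overlapped another. The C1qb window held 1 PU box beginning 30 bases upstream of the start, and the C1qc window held 1 on the opposite strand, 193 bases upstream. The C3 window held 1 C/EBP motif 45 bases upstream. The C5ar1 window held 1 interferon-stimulated core 66 bases upstream, and the C3ar1 window held none of the 5. Of the 32851 promoters of this length, 28.3% held a PU box, 10.8% the C/EBP motif, 8.30% the gamma-activated sequence, 8.56% the interferon-stimulated core and 1.11% the NF-kB motif. These matches describe the letters only.

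The tables held counts of unique molecular identifiers (UMIs, tags that count single transcripts) for 4565 vehicle and 6558 TAK-931 barcodes, with 144767193 and 77369283 UMIs. A limit of more than 2000 genes and less than 15% mitochondrial UMIs left 3441 barcodes (75.4%) in vehicle and 3488 (53.2%) in TAK-931, with medians of 40504 and 15097 UMIs. The libraries shared 8 barcodes, of which 1 was kept in both. Cells were classed by marker lists that contain none of the complement genes. The largest classes were J558-like cells (3006 and 113 cells), monocyte/macrophage-like cells (222 and 2081) and T-like cells (13 and 661). Endothelial-like (81 and 188), fibroblast-like (17 and 47) and mural-like cells (23 and 40), the last being the pericytes and smooth muscle of vessels, were scarce. A further 47 and 179 cells carried markers of a second class and stayed unassigned, and doublets were not otherwise removed. Each named class had its own markers among its 10 leading genes, and mural-like cells also had 2 fibroblast markers there beside 3 of their own. Levels are UMIs of a gene per 1000000 UMIs of the class (CPM).

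Counts in cells that should lack a gene gave a background. T-like cells of the TAK-931 library, which should lack C1q, carried 35.0 CPM of C1qa, 32.4 CPM of C1qb and 20.5 CPM of C1qc, or 2.28%, 2.61% and 2.31% of the levels in the whole library. J558-like cells carried 2.01 CPM of C1qa in vehicle and 25.6 CPM in TAK-931, which was 2.24% and 1.67% of the whole library's level, with 37.3% of the vehicle UMIs in 1 cell. NK-like cells of TAK-931, which should also lack C1q, carried 65.1 CPM of C1qa, 70.6 CPM of C1qb and 36.1 CPM of C1qc. These were 4.23%, 5.68% and 4.05% of the whole library's levels. C1q at these levels was read as background. NK-like cells of TAK-931 had 0 UMIs of C3, Cfb and Serping1 in 86 cells, which allows up to 2.35 CPM.

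Over all kept cells the 8 genes were higher in TAK-931 without exception. C1qa stood at 85.9 CPM in vehicle and 1597 CPM in TAK-931, C1qb at 61.6 and 1278 CPM, and C1qc at 49.4 and 931 CPM. The 3 chains together were at 197 CPM in vehicle and 3807 CPM in TAK-931, a log2 ratio of 4.27 (interval 4.26 to 4.29). C3 was at 2.18 and 108 CPM and Cfb at 3.25 and 166 CPM, the largest ratios of the set at 5.63 and 5.68 on the log2 scale. Serping1 was at 8.29 CPM in vehicle and 127 CPM in TAK-931 (log2 ratio 3.94). The receptor C3ar1 was at 4.17 and 139 CPM (log2 ratio 5.05) and C5ar1 at 2.47 and 42.8 CPM (log2 ratio 4.12). All 8 were past 2-fold higher, where 37.3% of the 18139 genes with at least 10 UMIs were past 2-fold higher and 18.8% past 2-fold lower. The tumour cells that dilute every other class made up 94.5% of the kept UMIs in vehicle and 12.0% in TAK-931, so fewer tumour cells and more stromal or immune transcripts cannot be told apart in these whole-library values.

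**Figure D1:**
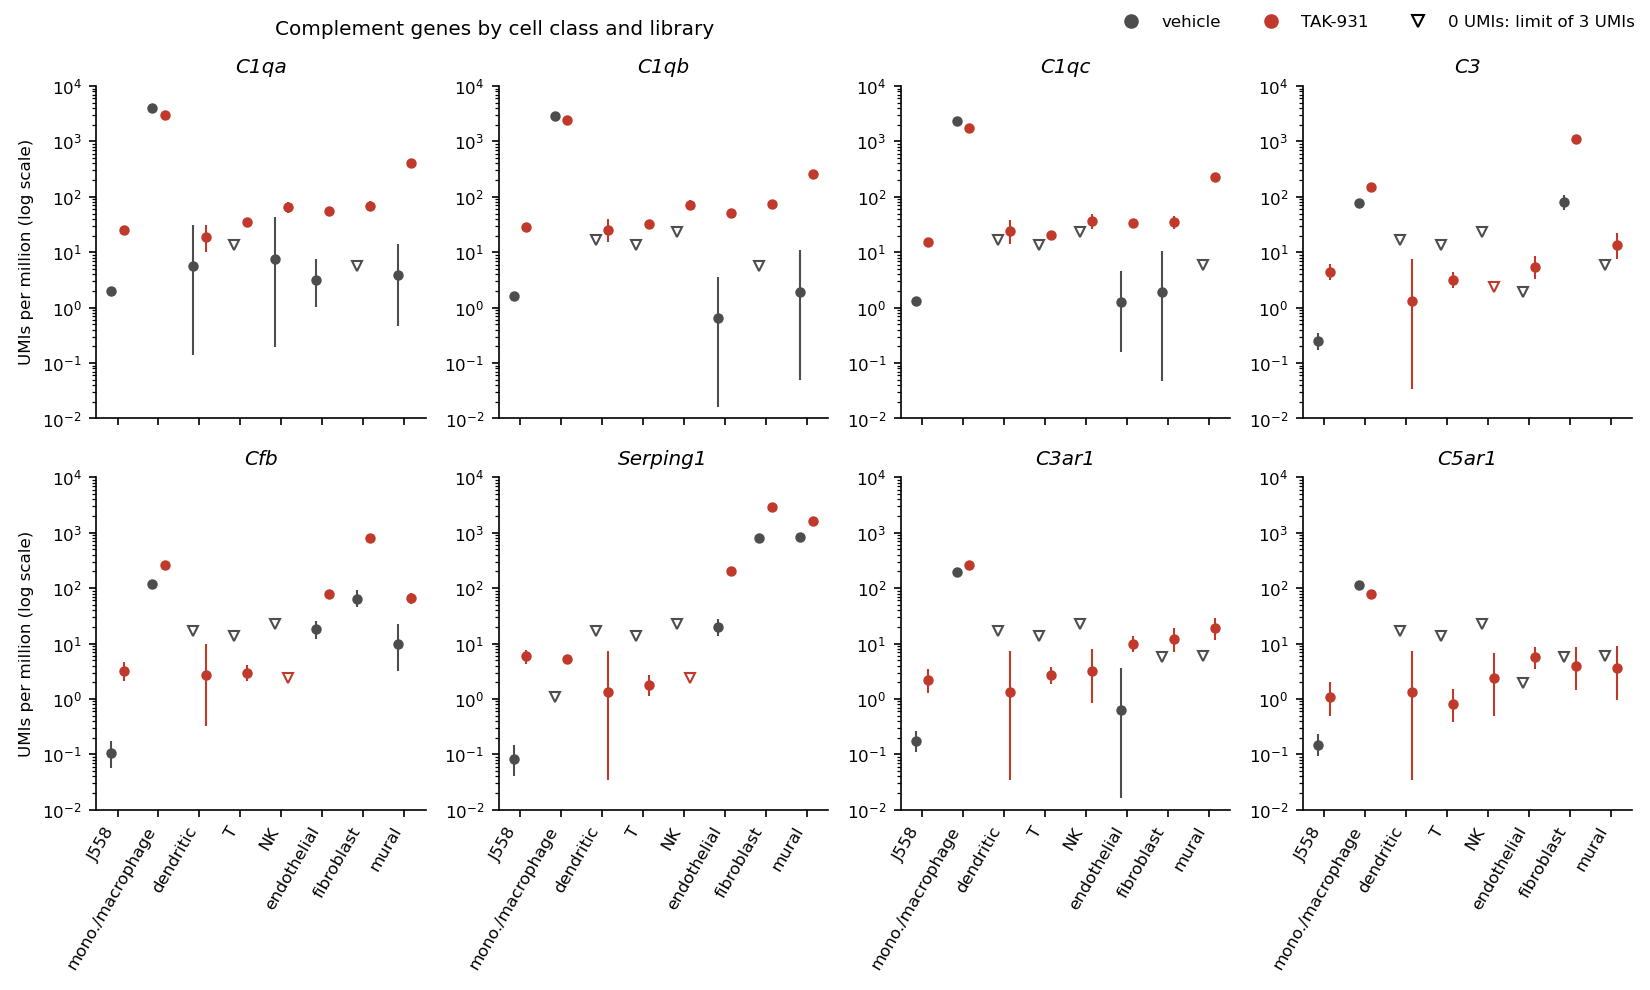
CPM of each gene (log axis) in 8 cell classes, vehicle in grey and TAK-931 in red, with exact Poisson 95% intervals as bars and open triangles at the limit that 0 UMIs allow (3 UMIs). C1q and both receptors peak in monocyte/macrophage-like cells, Serping1 in fibroblast-like and mural-like cells, and C3 and Cfb in both macrophage-like and fibroblast-like cells.

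The source of each gene was read from the share of its UMIs held by each class. Monocyte/macrophage-like cells held 92.6% of the C1qa UMIs in vehicle and 94.5% in TAK-931. They held 91.0% and 94.4% of C3ar1, and 89.4% and 92.2% of C5ar1. For C3 they held 69.5% and 69.3%, with fibroblast-like cells second at 13.6% and 22.3% and J558-like cells at 10.7% and 0.494%. For Cfb they held 72.9% and 79.6%, against 7.42% and 10.4% in fibroblast-like cells. Serping1 had another source. Fibroblast-like cells held 35.8% of it in vehicle and 49.9% in TAK-931, mural-like cells 36.8% and 20.7%, and the unassigned cells 23.9% and 17.96%, while monocyte/macrophage-like cells held 0% and 2.09%. C1q and the receptors were thus counted mostly in 1 class in both tumours, and C3 and Cfb in a myeloid and a stromal class.

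**Figure D2:**
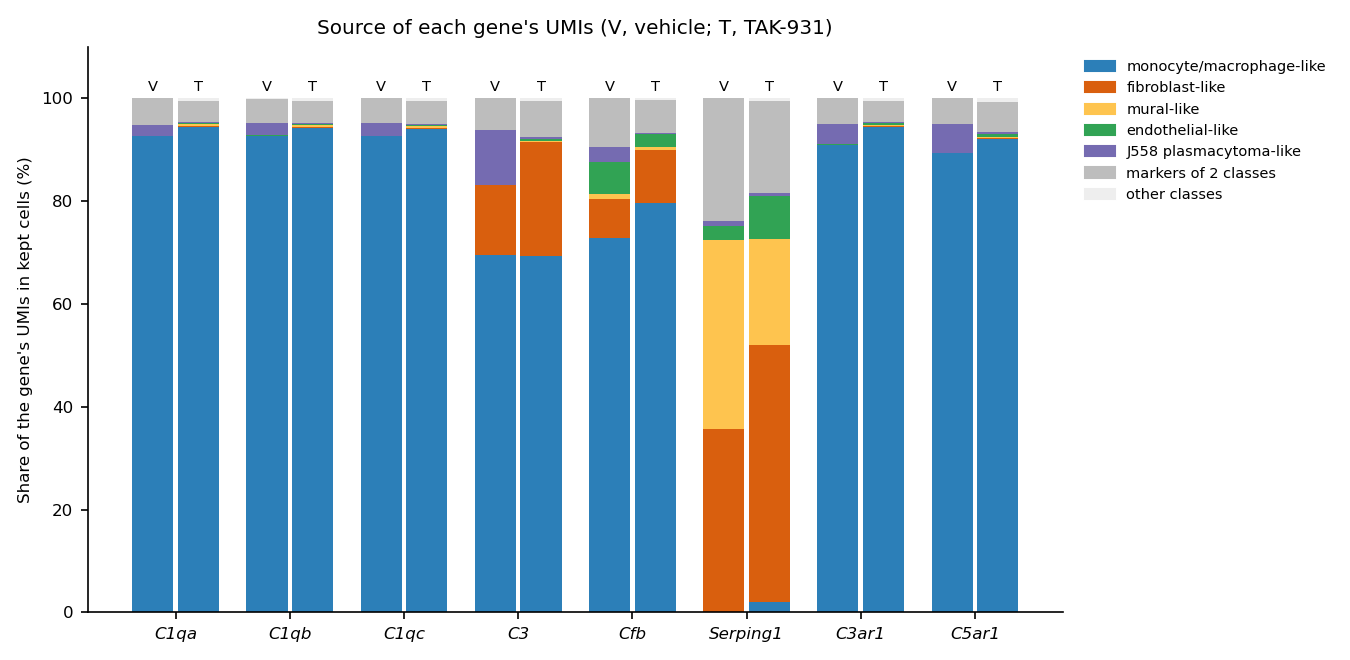
Stacked bars giving the percent of each gene's UMIs in kept cells that fell in each class, with the vehicle (V) and TAK-931 (T) library side by side. Monocyte/macrophage-like cells hold over 89% of C1q and receptor UMIs in both libraries, and fibroblast-like and mural-like cells hold most of Serping1.

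The difference between the libraries was split into a part from the classes' shares of UMIs and a part from the levels within classes. For the C1q chains the class shares came to 112% of the difference of 3610 CPM, so the levels within classes went the other way. C5ar1 was alike, with 116% from class shares. C3ar1 had 83.1% from class shares. The shares accounted for 63.4% of the difference in C3, 65.4% in Cfb and 56.5% in Serping1, leaving 36.6%, 34.6% and 43.5% to the levels within classes. Levels within monocyte/macrophage-like cells gave 17.9% of the C3 difference, 23.1% of that in Cfb and 1.16% of that in Serping1, and levels within fibroblast-like cells gave 12.3%, 5.67% and 22.6%. This split is a description of 2 libraries.

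Within monocyte/macrophage-like cells the C1q chains were somewhat lower in TAK-931. C1qa was at 4051 CPM in vehicle and 3031 CPM in TAK-931, a log2 ratio of -0.42 (interval -0.45 to -0.39). C1qb was at 2908 and 2423 CPM (log2 ratio -0.26) and C1qc at 2329 and 1761 CPM (log2 ratio -0.40). The 3 chains differed in the same direction, and together they were at 9288 and 7216 CPM, a log2 ratio of -0.36 (interval -0.38 to -0.35) or 1.29-fold lower. Of 10857 genes with at least 50 UMIs in these cells, 27.7% had a lower ratio than the chains together. C3 was at 77.2 and 150 CPM (log2 ratio 0.96, interval 0.76 to 1.16) and Cfb at 121 and 266 CPM (log2 ratio 1.14, interval 0.98 to 1.30). C3ar1 was at 193 and 263 CPM (log2 ratio 0.44, interval 0.32 to 0.57), whereas C5ar1 was at 112 and 79.3 CPM (log2 ratio -0.50, interval -0.67 to -0.33). Of the same genes 91.6% had a lower ratio than C3, 93.9% than Cfb, 78.3% than C3ar1 and 20.8% than C5ar1. Of the 8 genes 2, Cfb and Serping1, were past 2-fold higher and none past 2-fold lower, where 8.01% of 13628 genes were past 2-fold higher and 8.46% past 2-fold lower. Serping1 had 0 UMIs in vehicle and 184 in TAK-931, or 5.33 CPM, beside 1.78 CPM in T-like cells and 5.89 CPM in J558-like cells of that library, the latter with 75.5% of its UMIs in 1 cell. Once the estimated free RNA was subtracted, Serping1 had no value in these cells. When every cell's own CPM was averaged, none of the 7 genes other than Serping1 was past 2-fold, with C3 at 0.58 and Cfb at 0.85 on the log2 scale, and Serping1 had no value.

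**Figure D3:**
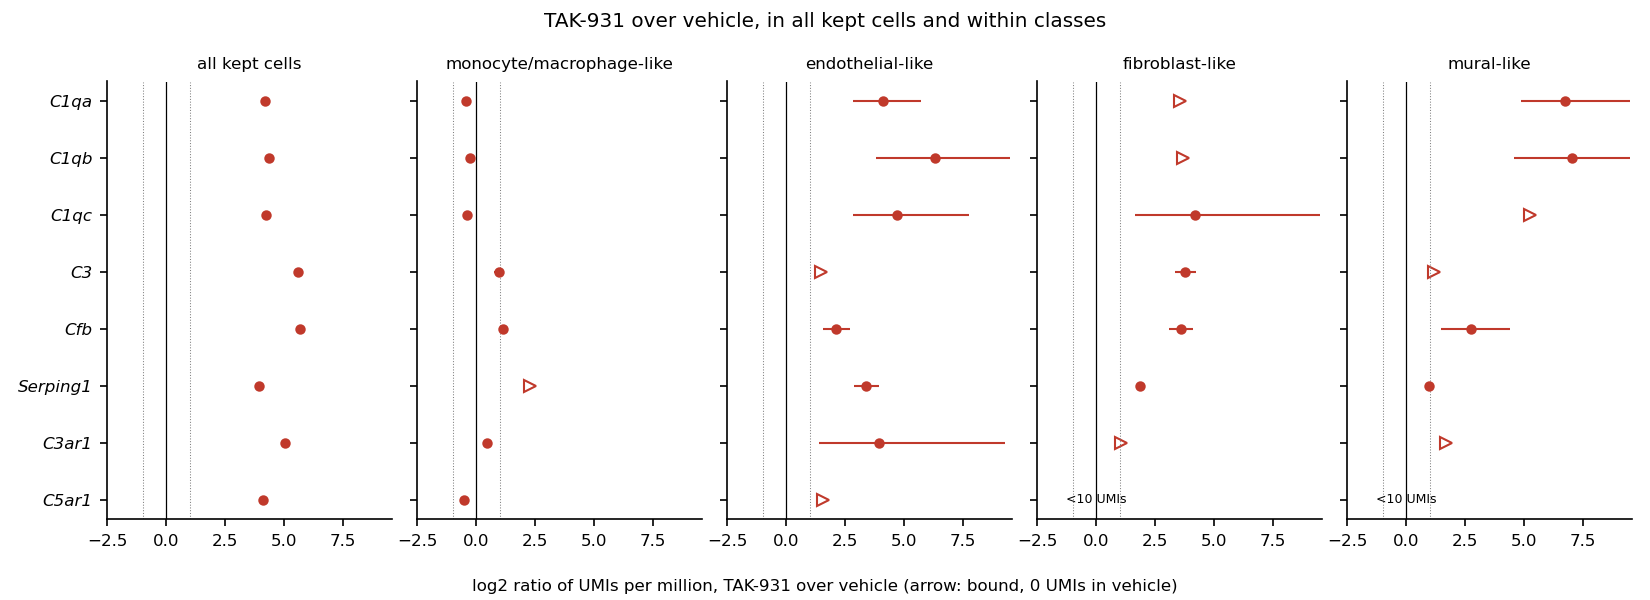
Log2 ratio of CPM, TAK-931 over vehicle, for each gene over all kept cells and within 4 classes, with exact 95% intervals as bars (cut at the edge of the axis) and open arrows as lower bounds where vehicle had 0 UMIs. Dotted lines mark 2-fold; all 8 genes lie past it over all cells, whereas in monocyte/macrophage-like cells the C1q chains and C5ar1 lie below 0.

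The proportion of the C1q chains to each other was compared next. In monocyte/macrophage-like cells C1qa made up 43.6% of the C1q UMIs in vehicle and 42.0% in TAK-931, C1qb 31.3% and 33.6%, and C1qc 25.1% and 24.4%. These are shares of 3′ counts and not of protein. In T-like cells of TAK-931 the shares were 39.8%, 36.9% and 23.3%, and in the monocyte subset described next they were 28.3%, 46.1% and 25.7% of 152 UMIs in vehicle and 37.8%, 39.6% and 22.5% in TAK-931. The interval for C1qa in that subset was 21.3% to 36.2% in vehicle and 36.8% to 38.9% in TAK-931, so the proportions were closer in the whole class than in the monocyte subset. Between single monocyte/macrophage-like cells, thinned to 4000 UMIs each, Pearson's r of log counts for C1qa and C1qb was 0.96 over 222 vehicle cells and 0.92 over 2081 TAK-931 cells, and for C1qa and C1qc 0.97 and 0.92. For C3 and Cfb it was 0.25 and 0.22. The cells of a library share 1 preparation, and these values are descriptions.

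Monocyte/macrophage-like cells were divided by markers of monocytes (such as Ly6c2 and Ccr2), macrophages (such as Apoe, Mrc1 and Trem2) and non-classical monocytes. The monocyte subset had 60 vehicle and 627 TAK-931 cells and the macrophage subset 154 and 1296. In the macrophage subset the C1q chains together were at 11491 CPM in vehicle and 9743 CPM in TAK-931 (log2 ratio -0.24, interval -0.26 to -0.22). In the monocyte subset they were at 309 and 942 CPM (log2 ratio 1.61, interval 1.37 to 1.85). The vehicle monocyte value rested on 152 UMIs, of which 99.3% were in 10 cells. The TAK-931 value stood beside 88.0 CPM in T-like cells and 172 CPM in NK-like cells of the same library. The chains were thus lower in one subset and higher in the other, a difference that was not tested.

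Counted per cell at 4000 UMIs, C1q in vehicle was mostly either absent or high. In the macrophage subset no C1q UMI was found in 22.1% (vehicle) and 8.72% (TAK-931) of cells, 0.649% and 11.4% had 1 to 9, 14.3% and 22.0% had 10 to 29, and 63.0% and 57.9% had 30 or more. In the monocyte subset 86.7% and 51.8% had none, 6.67% and 37.8% had 1 to 9, 6.67% and 7.50% had 10 to 29, and 0% and 2.87% had 30 or more. The 4 vehicle and 65 TAK-931 cells of that subset with 10 or more held 83.6% and 77.0% of its C1q UMIs, so few cells carried its level in both libraries. Among T-like cells of TAK-931, which mark the background, 25.6% had 1 to 9 UMIs and 0.303% had 10 or more. In the vehicle library 0 of 13 T-like cells had any. All 3 chains were present in 76.6% and 81.8% of cells in the macrophage subset, and in 6.67% and 12.9% of the monocyte subset. The part of free RNA in the range of 1 to 9 UMIs was not tested.

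**Figure D4:**
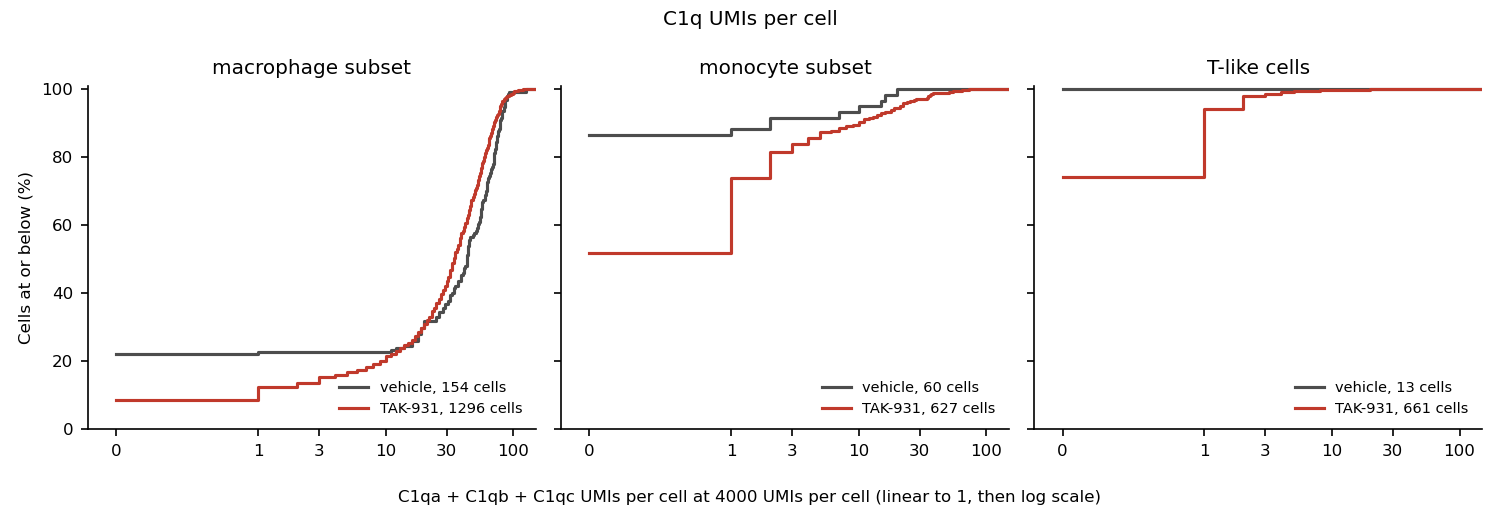
Cumulative percent of cells (y axis) against the C1q UMIs per cell at 4000 UMIs per cell (x axis, linear to 1 and then log), vehicle in grey and TAK-931 in red. In the macrophage subset the vehicle curve is flat between 1 and 9 UMIs, where TAK-931 holds 11.4% of its cells; T-like cells show the background.

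C3, the precursor of C3a and C3b, and factor B differed more in the macrophage subset than in the monocyte subset. In the macrophage subset C3 was at 57.1 CPM in vehicle and 151 CPM in TAK-931 (log2 ratio 1.41, interval 1.15 to 1.67), and Cfb at 100 and 266 CPM (log2 ratio 1.41, interval 1.22 to 1.61). In the monocyte subset C3 was at 181 and 168 CPM (log2 ratio -0.11, interval -0.42 to 0.22) and Cfb at 234 and 304 CPM (log2 ratio 0.38, interval 0.11 to 0.66). In vehicle the monocyte subset thus carried more of both genes than the macrophage subset, and in TAK-931 the subsets were closer. With 1 library per group the difference between subsets was not tested. At 4000 UMIs, 18.8% (vehicle) and 36.7% (TAK-931) of the macrophage subset had a C3 UMI, against 0.605% of T-like cells in TAK-931. For Cfb the shares were 27.9% and 50.9%, against 1.51% of T-like cells.

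In fibroblast-like cells both genes differed by over 10-fold. C3 was at 80.2 CPM (interval 57.8 to 108) in 17 vehicle cells and 1102 CPM in 47 TAK-931 cells, 13.7-fold higher (interval 10.1 to 19.1). Cfb was at 64.9 CPM (interval 44.9 to 90.7) and 787 CPM, 12.1-fold higher (interval 8.63 to 17.6). At 4000 UMIs a C3 UMI was found in 17.6% of the vehicle cells (interval 3.80% to 43.4%) and 80.9% of those in TAK-931 (interval 66.7% to 90.9%). A Cfb UMI was found in 23.5% and 76.6%, and both together in 1 of the 17 cells in vehicle and 32 of the 47 in TAK-931. The median cell had 0.152 C3 UMIs per 10000 in vehicle and 6.04 in TAK-931, and the highest cells 5.69 and 99.4. For Cfb the medians were 0 and 5.26. The ranges overlapped at the low end, since 4 TAK-931 cells had no C3 UMI and 3 no Cfb UMI. In J558-like cells the ratios were also large at far lower levels, with C3 at 0.248 and 4.45 CPM (33 and 37 UMIs, log2 ratio 4.17) and Cfb at 0.105 and 3.24 CPM (14 and 27 UMIs, log2 ratio 4.95), beside 3.15 and 2.99 CPM in T-like cells of TAK-931.

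In vehicle 1 cell held 21 of the 42 C3 UMIs and 1 held 44.1% of the Cfb UMIs. The 10 highest cells of TAK-931 held 68.7% and 59.8%. Without the highest cell of each library the log2 ratio was 4.47 for C3 and 4.20 for Cfb, beside 3.78 and 3.60 with all cells. The fibroblast-like cells of the libraries also differed in markers. The 8 fibroblast markers summed to 37655 CPM in vehicle and 60167 CPM in TAK-931, and the 8 mural markers to 4914 and 615 CPM, with all 16 detected in both. Macrophage markers summed to 349 and 689 CPM, and C1q in the TAK-931 cells was at 177 CPM, 38.7% of it in 1 cell, or 3.92% to 5.95% of the whole library's level beside an estimated 5.04% of free RNA. Their part in the C3 and Cfb values was not tested.

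**Figure D5:**
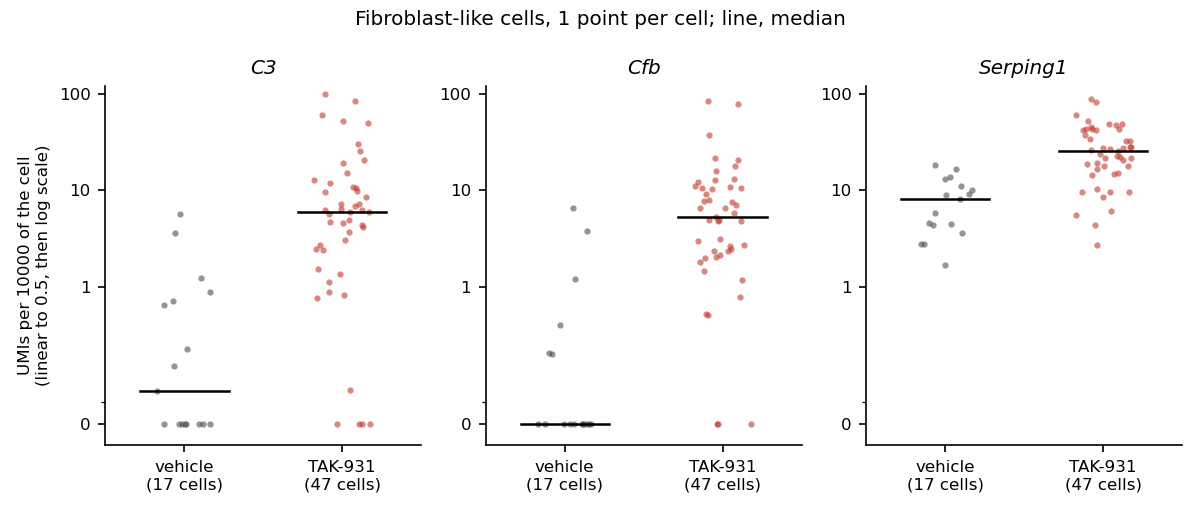
UMIs of C3, Cfb and Serping1 per 10000 UMIs of each fibroblast-like cell (y axis, linear to 0.5 and then log), 17 vehicle cells in grey and 47 TAK-931 cells in red, with the median as a line. The medians are 0.152 and 6.04 for C3, 0 and 5.26 for Cfb, and 8.19 and 25.5 for Serping1.

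Serping1, the gene of C1 inhibitor, was the stromal member of the set. In fibroblast-like cells it was at 798 CPM in vehicle and 2902 CPM in TAK-931, 3.64-fold higher (interval 3.29 to 4.03), and every cell of both libraries had at least 1 UMI. The median cell had 8.19 and 25.5 UMIs per 10000. In mural-like cells it was at 839 and 1626 CPM, 1.94-fold higher (interval 1.74 to 2.16), also with a UMI in every cell. Fibroblast markers in those cells summed to 12545 and 16796 CPM, and mural markers to 17371 and 10363 CPM. In endothelial-like cells Serping1 was at 19.9 CPM in 81 vehicle cells and 208 CPM in 188 TAK-931 cells, 10.5-fold higher (interval 7.31 to 15.5). Of the 31 vehicle endothelial UMIs 74.2% were in 1 cell, and without the highest cell of each library the values were 5.31 and 194 CPM, a log2 ratio of 5.19 beside 3.39. At 4000 UMIs a UMI was found in 3.70% and 42.0% of cells, against 0.605% of T-like cells in TAK-931. Fibroblast markers summed to 256 CPM in endothelial-like cells of vehicle and 63.7 CPM in TAK-931. In fibroblast-like and mural-like cells Serping1 was thus present in both tumours at different levels, whereas in endothelial-like cells of vehicle it was counted in 6 of 81 cells before thinning.

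The other genes were sparse in vessel cells. Cfb in endothelial-like cells was at 17.9 and 77.7 CPM (log2 ratio 2.11, interval 1.55 to 2.73), with a UMI in 7.41% and 22.3% of cells at 4000 UMIs. C3 in these cells had 0 UMIs in vehicle and 19 in TAK-931, or 5.43 CPM, beside 3.15 CPM in T-like cells. In mural-like cells Cfb had 5 and 74 UMIs, or 9.75 and 65.9 CPM, and without the highest cell of each library 2.10 and 57.9 CPM. C1q in mural-like cells of TAK-931 reached 901 CPM, of which 57.8% was in 1 cell and 96.5% in 10 cells, and macrophage markers summed to 13.7 CPM in vehicle and 1002 CPM in TAK-931. C1q in endothelial-like cells had 8 UMIs in vehicle. In TAK-931 it was at 3.61% to 4.11% of the whole library's level. There T-like cells were at 2.28% to 2.61% and NK-like cells at 4.05% to 5.68%.

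All 8 genes were past 2-fold higher in endothelial-like cells, where 10.3% of 11472 genes were past 2-fold higher and 10.4% past 2-fold lower. In fibroblast-like cells all 7 genes with at least 10 UMIs were, beside 12.8% of 9717 genes past 2-fold higher and 14.8% past 2-fold lower. In mural-like cells it was 6 of 7, without Serping1, beside 21.2% of 9319 genes past 2-fold higher and 6.13% past 2-fold lower. These counts include C1q and the receptors, and some rest on few UMIs. Endothelial C3 had a log2 ratio of 0.65 with a stricter marker gate, and without the highest cell of each library mural C3 was at 0.14 and fibroblast C3ar1 at 0.59, all short of 2-fold. With the estimated free RNA subtracted, 5 genes remained past 2-fold higher in endothelial-like cells and 3 had no value. The 5 were C1qb and C3ar1, with 1 vehicle UMI each, C5ar1, with 0, and Cfb and Serping1. In fibroblast-like cells 3 remained (C3, Cfb and Serping1) and 3 had no value. In mural-like cells 4 remained (the C1q chains and Cfb) and 2 had no value.

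C3ar1 and C5ar1, the receptors for the fragments C3a and C5a, were counted mainly in monocyte/macrophage-like cells among the kept cells and differed in opposite directions there. Barcodes with fewer genes, which include neutrophil-like ones, are outside this count. In the macrophage subset C3ar1 was at 217 CPM in vehicle and 296 CPM in TAK-931 (log2 ratio 0.45, interval 0.32 to 0.59), and in the monocyte subset at 93.6 and 204 CPM (log2 ratio 1.13, interval 0.70 to 1.58). C5ar1 was at 88.2 and 64.0 CPM in the macrophage subset (log2 ratio -0.46, interval -0.68 to -0.24) and at 234 and 125 CPM in the monocyte subset (log2 ratio -0.90, interval -1.18 to -0.61). C3ar1 was thus higher in macrophages and C5ar1 in monocytes of both libraries. At 4000 UMIs, 47.3% (vehicle) and 56.1% (TAK-931) of monocyte/macrophage-like cells had a C3ar1 UMI, and 36.04% and 23.2% a C5ar1 UMI. In T-like cells of TAK-931 these shares were 0.303% and 0%. In dendritic-like cells, 11 in vehicle and 32 in TAK-931, each receptor had 0 UMIs in vehicle and 1 UMI in TAK-931. The monocyte/macrophage-like cells had a median of 10362 UMIs in vehicle and 14683 in TAK-931 before thinning.

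Of 49 other genes of the pathway, 31 had at least 50 UMIs and 18 had fewer. Those named are given in the class with the highest CPM over both libraries together, which is not always the highest in each library. The proteases of the classical pathway had their highest levels in fibroblast-like cells. There C1ra was at 82.1 CPM in vehicle and 300.2 CPM in TAK-931, C1rb at 40.1 and 198 CPM, C1s1 at 109 and 633 CPM, and C1s2 at 43.9 and 113 CPM (log2 ratios 1.87, 2.30, 2.54 and 1.36). C4b, the source of the C4b fragment that binds targets, was at 210.0 and 606 CPM (log2 ratio 1.53), C2 at 151 and 226 CPM (log2 ratio 0.58) and the lectin pathway protease Masp1 at 3.82 and 14.5 CPM, from 2 and 22 UMIs. By share of UMIs the source differed in vehicle, where the many J558-like cells held 353 of 435 C1ra UMIs, 236 of 278 C1rb UMIs and 215 of 308 C2 UMIs at 2.65, 1.77 and 1.61 CPM. In TAK-931 monocyte/macrophage-like cells held 1827 of 3064 C4b UMIs at 53.0 CPM. C1ra and C1rb, C1s1 and C1s2, and C4b and C4a are close copies, and how reads were split between them is uncertain. Of these 7 genes 6 were past 2-fold higher, all but C2, beside 12.8% of all genes in the class. The 7 were picked by their level over both libraries together, mostly from TAK-931 UMIs, and the 12.8% has no such selection. The interval of the log2 ratio of Masp1 went from -0.10 to 5.06.

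Regulators did not share one direction. Cd59a, which blocks the membrane attack complex, was at 210.0 CPM in fibroblast-like cells of vehicle and 23.7 CPM in TAK-931 (log2 ratio -3.14, interval -3.73 to -2.59), where endothelial-like cells were higher at 43.4 CPM, while Cd59b in mural-like cells had 5 and 9 UMIs. Vitronectin (Vtn), which binds the terminal complex, was at 19.5 and 98.8 CPM in mural-like cells (log2 ratio 2.34), and Csmd1 at 7.80 and 21.4 CPM. Clusterin (Clu) in endothelial-like cells was at 42.9 and 56.0 CPM (log2 ratio 0.38, interval -0.02 to 0.81). C4bp in J558-like cells was at 3.21 and 5.17 CPM. Cr1l in NK-like cells was at 122 and 111 CPM, from 10 and 86 cells. Cd55 in 11 B-like cells of TAK-931 was at 163 CPM, from 21 UMIs, and Cd46 had 2 UMIs there, under the limit of 3, with no B-like cell in vehicle.

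Monocyte/macrophage-like cells held several further genes of the pathway. Ficolin A (Fcna), a lectin that recognises sugars, was at 77.2 CPM in vehicle and 15.05 CPM in TAK-931 (log2 ratio -2.36, interval -2.59 to -2.12), whereas properdin (Cfp), which stabilises the alternative enzyme, was at 273 and 250 CPM (log2 ratio -0.13). C6, of the terminal pathway, was at 1.80 and 11.3 CPM, from 5 and 390 UMIs. The complement receptor 3 and 4 chains Itgam and Itgax were at 146 and 105 CPM (log2 ratio -0.48) and at 109 and 53.0 CPM (log2 ratio -1.04). The receptor Vsig4 had 2 and 57 UMIs. The shared integrin chain Itgb2 was at 206 and 304 CPM in monocyte/macrophage-like cells and at 160 and 389 CPM in NK-like cells (log2 ratio 1.28), so that NK-like cells were the higher of these in TAK-931 and the lower in vehicle.

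Outside macrophages, Cd93 in endothelial-like cells was at 963 and 482 CPM (log2 ratio -0.9998). In fibroblast-like cells the scavenger receptor Colec12 was at 252 and 152 CPM (log2 ratio -0.73), Lrp1 at 325 and 488 CPM (log2 ratio 0.59) and calreticulin (Calr) at 846 and 915 CPM (log2 ratio 0.11). Calr was lower in TAK-931 in monocyte/macrophage-like cells, at 1082 and 629 CPM, and in endothelial-like cells, at 876 and 530 CPM. Colec11 in mural-like cells had 0 and 33 UMIs. Masp2 in J558-like cells was at 2.43 and 3.004 CPM. C8g in J558-like cells was at 1.09 and 0.601 CPM, beside 1.44 CPM in monocyte/macrophage-like cells of vehicle (4 UMIs) and 0.728 CPM in T-like cells of TAK-931 (9 UMIs).

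Counted over the whole list of 57 genes with the 8 included, 39 of 48 genes with at least 10 UMIs were past 2-fold higher over all kept cells and 4 past 2-fold lower, with a median log2 ratio of 3.13 beside 0.33 for all genes. Without the 8 it was 31 higher and 4 lower of 40, beside 37.3% and 18.8% of all genes. Within monocyte/macrophage-like cells it was 9 higher and 4 lower of 37, and 7 and 4 of 29 without the 8, beside 8.01% and 8.46% of all genes. The median there was 0 for the list and for all genes, since genes absent from vehicle whose bound gave no direction count as 0. In fibroblast-like cells 17 of 28 were higher and 3 lower (median 1.70 beside -0.18 for all genes), and 10 and 3 of 21 without the 8 (median 0.79), beside 12.8% and 14.8% of all genes. In endothelial-like cells 18 of 28 were higher and 0 lower (median 1.53 beside -0.13), and 10 and 0 of 20 without the 8 (median 1.10), beside 10.3% and 10.4%. In mural-like cells 19 of 30 were higher and 1 lower (median 1.56 beside 0.23), and 13 and 1 of 23 without the 8 (median 1.45), beside 21.2% and 6.13%. These stromal counts include genes with far higher levels in monocyte/macrophage-like cells. Among the 10 endothelial ones were Itgb2 (0 and 93 UMIs), Cfp (2 and 40), Itgam (1 and 30) and Itgax (0 and 16). The part of free RNA in the stromal counts was not tested.

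Other genes shared the pattern of these genes over 17 sums of a class and library with at least 10 cells each. By Pearson's r of log2(CPM + 5) among 12653 genes, those nearest C1qa were C1qb (r = 0.99), C1qc (0.99) and Ms4a7 (0.97). Nearest C3 were Saa3 (0.98), an acute-phase gene, Rhou (0.95) and Gas6 (0.95), and nearest Cfb were Igf1 (0.95), Mgst1 (0.94) and Nr1d1 (0.93). Serping1 was nearest Trip6 (0.98), Fbn1 (0.98) and Enah (0.98). C3ar1 was nearest Csf3r, Igsf6 and Clec4d (0.99 each), and C5ar1 nearest Sirpb1a (0.99), F630028O10Rik (0.99) and Mefv (0.99). The sums of a library share its depth and preparation, and the likeness is a description.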

How the data were processed

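Droplet 3′ libraries (v3.1 chemistry) of 1 vehicle and 1 TAK-931 tumour were counted by the authors with Cell Ranger 6.0.0 per the file headers. The deposited values are raw UMI counts per gene and barcode. The submitters' processing notes name mm10 (GRCm38), whereas the study's methods name a human build for all single-cell data; the features are mouse genes. The cell filter was that of the methods. The 8 genes, the marker lists and the pathway list were chosen with earlier results of these data known.

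Each cell was scored by the mean, over a class's markers, of its log expression relative to the 90th percentile of positive cells, capped at 1. It took the class with the highest score if this was at least 0.2 and no unrelated class reached over 0.6 of it, a rule set after seeing the data. In all, 35 vehicle and 96 TAK-931 cells were within 0.05 of either limit. UMIs were summed per class and library. Poisson, Clopper-Pearson and conditional binomial intervals were exact, a sum of 0 was set to 3 UMIs, and ratios needed 10 UMIs in both sums together. Free RNA was estimated from markers of other classes. Scripts ran under scanpy 1.11.5, leidenalg 0.10.2, pandas 2.3.3, scipy 1.17.1, numpy 2.4.6 and python 3.11.15, and were tested on simulated data. Named genes were the 8 in every class, list genes with at least 50 UMIs in the class with the highest CPM over both libraries (1 is not reported here), and for 6 of the 8 the 3 genes most alike in pattern among those with at least 200 UMIs. Alternatives were other gene and mitochondrial limits, Leiden clusters without complement genes, gates, scaling, free RNA, minimum UMIs and thinning.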

Additional observations from a re-analysis of the deposited data

Results flagged for a closer look

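The C1q chains had opposite directions in the subsets. In the monocyte subset the log2 ratio of TAK-931 over vehicle was 2.03 for C1qa, 1.39 for C1qb and 1.42 for C1qc, while in the macrophage subset it was -0.29, -0.13 and -0.28. C3 also had opposite signs, at -0.11 with an interval from -0.42 to 0.22 in the monocyte subset and 1.41 in the macrophage subset. With 1 library per group the difference between the subsets was not tested, and the vehicle monocyte values rested on 43, 70 and 39 UMIs.

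Barcodes with 2000 genes or fewer, left out of the comparisons above and taken in only under the lower gene limits, held a further source of 2 of the genes. With a limit of over 500 genes, 26 vehicle and 42 TAK-931 barcodes were neutrophil-like by their markers. C5ar1 was at 526 CPM in vehicle (24 UMIs, interval 337 to 783) and 686 CPM in TAK-931 (84 UMIs, interval 547 to 850) in these barcodes, with a UMI in 14 of 26 and 33 of 42. C3 was at 87.7 CPM (4 UMIs) and 180 CPM (22 UMIs, interval 113 to 272). C3ar1, Cfb and Serping1 had 0 UMIs in both libraries, which allows up to 65.8 CPM in vehicle and 24.5 CPM in TAK-931.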

How the results depend on the processing

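No paired analysis was possible because each group has 1 library. Over all kept cells the count of 8 genes past 2-fold was 8 under all 9 alternatives run. The log2 ratio of the C1q chains over all cells, 4.27, was 4.19 with over 1000 genes per cell, 4.17 with over 500 genes, 4.12 with scaling by the median ratio, 2.91 as the mean of each cell's CPM, and 4.31 without the highest cell of each library, an alternative chosen after seeing the data.

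In monocyte/macrophage-like cells the count of genes past 2-fold, 2, was 0 with the mean of each cell's CPM and 1 with free RNA subtracted, where Serping1 gave no value, and 3 at most. The ratio of the C1q chains, -0.36, was -0.27 under both lower gene limits, -0.34 with a stricter gate, -0.26 with median ratio scaling, -0.30 as a mean over cells and -0.40 with free RNA subtracted. All 11 alternatives kept its sign. C3 ranged from 0.58 to 1.07 and Cfb from 0.85 to 1.25, the lowest of both as a mean over cells. In fibroblast-like cells C3 ranged from 3.58 to 4.47, Cfb from 3.24 to 4.20 and Serping1 from 1.64 to 2.20 under 13 alternatives each, where clusters without complement genes joined mural-like cells to them (54 and 122 cells). Endothelial Serping1 ranged from 2.38 to 6.28, the lowest with cells of 2 classes kept and the highest with the stricter gate. Among alternatives with a value, no ratio past 2-fold changed sign. Bounds from 0 UMIs that fell on the other side of 0 were given no value, so such changes could not appear there. With free RNA subtracted, C1qa, C1qc and C3 had no value in endothelial-like cells, and C1qa, C1qc and C3ar1 had none in fibroblast-like cells. In mural-like cells C3 and C3ar1 had none. The cause of these changes was not tested.

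With 1 library per group no spread between animals could be estimated, and values from 17 vehicle fibroblast-like cells rest on few cells. Shares were compared at 4000 UMIs, and depth limits the sparse receptors outside macrophages.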

Other observations

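The non-classical monocyte subset had 8 vehicle and 158 TAK-931 cells. Its C1q chains together were at 4763 CPM in vehicle, from 432 UMIs, and 2943 CPM in TAK-931. All the vehicle UMIs were in 3 of the 8 cells, and in 2 of the 8 the highest subset scores were under 0.05 apart. C3 and Cfb had 0 UMIs in vehicle, which allows up to 33.1 CPM, and were at 63.0 and 103 CPM in TAK-931. Among single monocyte/macrophage-like cells at 4000 UMIs, Pearson's r of log counts between C1qa and C5ar1 was -0.23 over 222 vehicle and -0.19 over 2081 TAK-931 cells, and between C1qa and C3ar1 0.15 and 0.19. These are descriptions of cells that share a library.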
